A study of Mus musculus with 12 samples.

Results

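The regions described here are 1054 m6A peaks of differentiated mouse keratinocytes, found under 613 gene names that had at least 1 peak at day 4 of differentiation and none at day 0. They were picked by gene name from the authors' peak lists: a day 4 peak was taken when its gene did not occur anywhere in the day 0 list. They make up 5.72% of the 18423 peaks at day 4 and 8.83% of the 6945 genes with a day 4 peak. The remaining 17369 day 4 peaks lie in 6332 genes that had peaks on both days, and these serve as the comparison throughout. The day 0 list holds 19920 peaks in 7379 genes, of which 1047 genes had no peak at day 4.

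The cells were primary keratinocytes of newborn mouse epidermis, kept on 3T3 feeder fibroblasts arrested with mitomycin C until passage 3. Day 4 cells had been differentiated by raising calcium in the medium, and day 0 cells were undifferentiated; no other genotype or agent separates the groups. At each day, 3 libraries were made from polyadenylated, sonicated RNA pulled down with an m6A antibody and 3 from the same kind of RNA without pull-down (input), 12 libraries in all. The tables used carry no value per library, so the depth and the spread of single libraries are unknown, and no difference below could be set against replicate spread except through the authors' own tests. The labels do not give the animals or cultures behind the replicates, so the spread behind the authors' p-values is that of these samples alone and may be technical. All 7 keratinocyte markers examined were in the expression table, which lists only genes called as changed. Of these, 6 were higher at day 4: Krt5 (0.96 on the log2 scale), Krt14 (1.06), Krt15 (4.57), Krt10 (1.47), Ivl (3.67) and Krt1 (5.10). Trp63 was lower (-0.92). Krt1 had a mean normalized count of only 2.65. Peaks on both days were found in 5 of the 7 (Krt5, Krt14, Krt15, Trp63 and Ivl).

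N6-methyladenosine is the most common internal modification of mRNA. It is written in the nucleus by a complex around METTL3 and METTL14, mostly near stop codons and in long exons, and reader proteins of the YTH family tie it to transcript decay, translation and splicing. The enzyme complex prefers adenosines in a short context known as DRACH. A peak is a stretch where antibody-bound fragments outnumber input fragments, so a transcript has to be expressed well enough to give fragments before a peak can be found in it.

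No genome sequence was used, but some of these peaks reach the annotated 5′ end of their gene, where RefSeq promoter tables (GRCm38.p6) give the first transcribed bases. In all, 20 of the 1054 peaks (1.90%) covered the whole first 50 bases of a gene, compared with 325 (1.87%) of the other day 4 peaks. Among those no wider than 1000 bp there were 12, and 11 of them began exactly at the annotated start. The windows below, 29 bases each and on the gene's own strand, show what lies under these peaks, and capitals mark each DRACH match (A, G or T, then A or G, then AC, then A, C or T).
Ptpra: gcggcgagtgaggcgcTGACAgGGACTcg
Ppp1r14c: gctgaggcgagaGGACCccacagcacggt
Irf9: cttcctggGAACCAGACAcggggcgtagt
Cxcl2: ctcgggcactccAGACTccagccacactt
Nfkb2: gcgggcgtccgAAACTctggaaagctgaa
H2-T23: caggttcctcacAGACCcagggggtgagg
Tbc1d8b: actctctctgcctacgtgggagagaaggc
Ptpra encodes a receptor tyrosine phosphatase, and its window lies at chr2:130450299-130450327 on the plus strand, in a 50-bp peak with an enrichment score of 118. The window of Ppp1r14c, a phosphatase inhibitor, lies at chr10:3366157-3366185 (plus, score 40.4). Irf9, the DNA-binding part of the type I interferon response factor, has its window at chr14:55603985-55604013 (plus, score 17.7), with a pair of adjoining matches. The window of the chemokine gene Cxcl2 lies at chr5:90903904-90903932 (plus, score 17.9), that of Nfkb2, a subunit of NF-kB, at chr19:46305930-46305958 (plus, score 17.8), and that of H2-T23, a non-classical class I molecule, at chr17:36032670-36032698 (minus, score 15.0). Tbc1d8b, a Rab GTPase-activating protein, had the highest score of the 12 at 299 and no match in its first 50 bases, of which chrX:139684996-139685024 is shown. A DRACH match stood in the first 50 bases of 9 of the 12 genes (75%), against 54.9% of the 164 other day 4 peaks of the same kind and 54.42% of all 32817 annotated starts. The 4-base core GGAC was in 2 of the 12, that is 16.7%, against 23.2% of those other peaks and 18.85% of all starts. Only the gene's own strand was searched, matches may overlap, and with 12 windows these shares describe the set and no more. Which base the antibody bound under these peaks was not tested.

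MicroRNA hairpins, Mir671 and Mir8114, were overlapped by 2 peaks of the set, and the peak at Mir671 is described here. The peak of Chpf2, a chondroitin synthase subunit, at chr5:24592140-24592387 covers the mature arm mmu-miR-671-3p at chr5:24592171-24592191 on the plus strand, shown here with its seed (bases 2 to 8) in capitals.
mmu-miR-671-3p: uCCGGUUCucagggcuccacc
Chpf2 also had called methylation gains of 1.36 and 1.82 in the authors' deposited methylation table.

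By the authors' enrichment score, which is their own value for each peak and whose scaling is not stated, the day 4-only peaks had a median of 21.1 (quartiles 10.9 and 55.6). The other day 4 peaks had a median of 16.8 (quartiles 7.82 and 42.6). The day 4-only peaks were narrower, with a median width of 99 bp against 150 bp, and 501 of them (47.5%) spanned a single 50-bp bin, against 29.2% of the others. Their p-values were weaker, with a median of 2.6e-10 against 6.6e-15. A gene in the day 4-only set held on average 1.72 peaks, against 2.74 in genes with peaks on both days. The rule that defined the set uses the presence of these peaks, so these values describe it and were not tested.

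**Figure D1:**
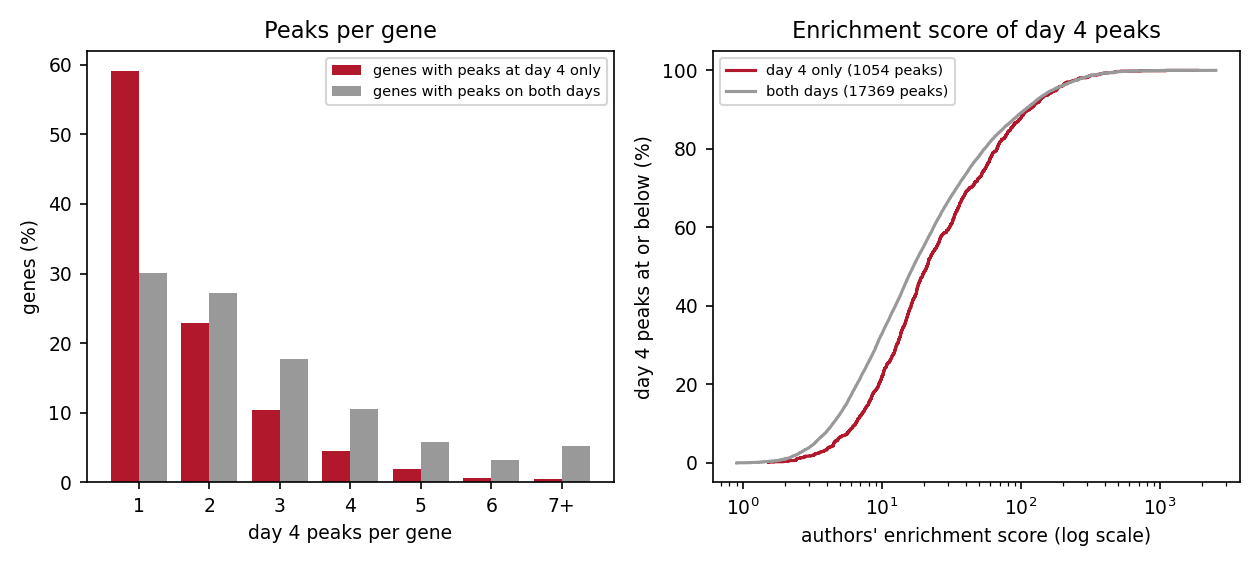
Left, the percentage of genes with 1, 2, 3 and more day 4 peaks, for genes with peaks at day 4 only (red) and on both days (grey). Right, the percentage of day 4 peaks at or below each enrichment score (log scale), where the red curve lies right of the grey one over most of its range, with medians of 21.1 and 16.8. In the left panel 59.1% of day 4-only genes have 1 peak, against 30.0% of the others.

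Of the 613 genes, 362 had 1 peak, 140 had 2, 64 had 3 and 47 had 4 or more. Zfhx2, a zinc finger homeobox transcription factor, had the most, with 10 peaks whose highest score was 41.3 at chr14:55061759-55061808. Its peaks were spread from 1515 to 13088 bp before the annotated 3′ end. Tnc, which encodes the matrix glycoprotein tenascin C, had 7 peaks, among them the smallest p-value of the set, 2.5e-119, at chr4:64015068-64018139 with a score of 66.8. Gcnt2, a glycosyltransferase of blood group I antigen synthesis, also had 7, with a highest score of 21.8. Hip1 (clathrin adaptor, highest score 198), Kcna4 (potassium channel, 13.3), Sowahb (ankyrin repeat protein, 11.5) and Hpgds (prostaglandin D synthase, 6.49) had 6 each. The order by score was thus unlike the order by number, and Hpgds had many low peaks where Atp2b4, a plasma membrane calcium pump, had 5 peaks with scores up to 214.

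**Figure D2:**
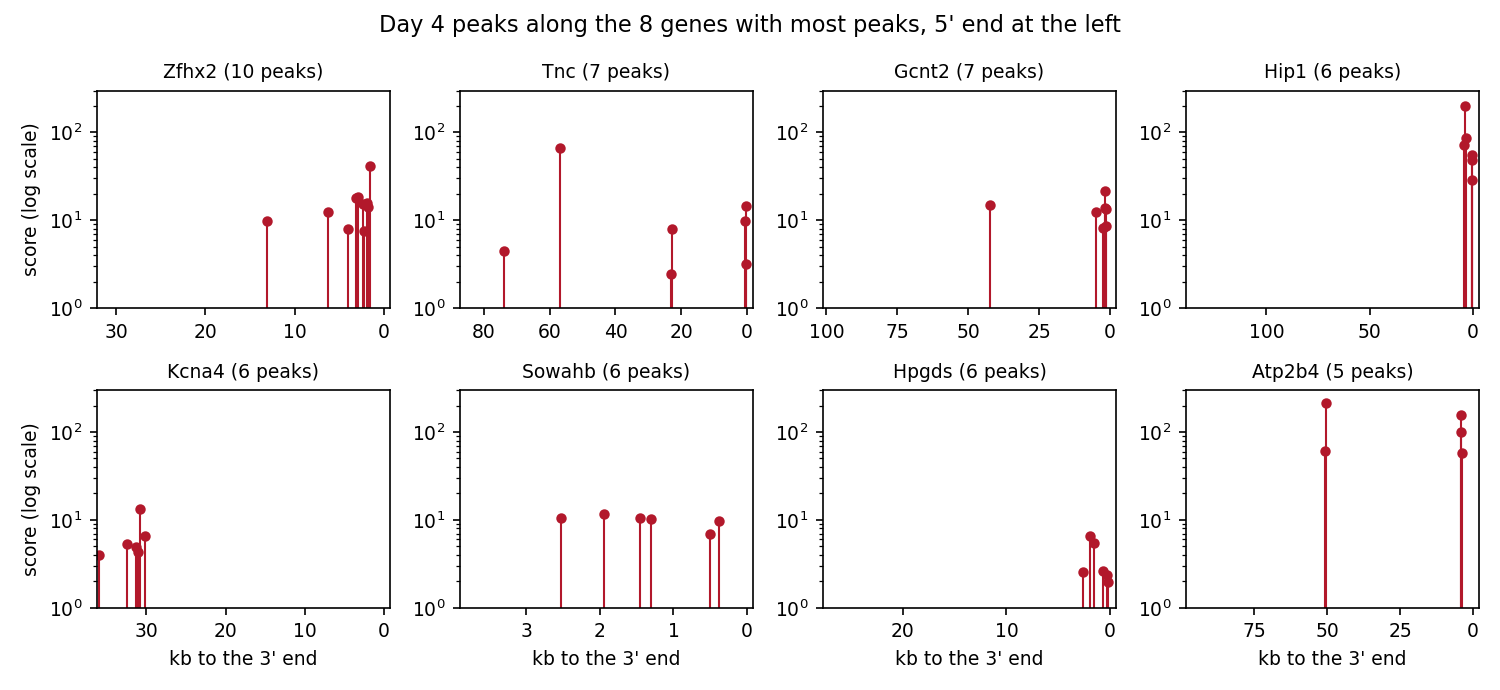
Day 4 peaks of the 8 genes with the most peaks, drawn as stems at their distance in kb from the annotated 3′ end (horizontal axis, 5′ end at the left, introns included) with the enrichment score as height (log scale). The 6 Hip1 peaks all lie within 5 kb of the 3′ end, while the 6 Kcna4 peaks lie over 30 kb from it, near the 5′ end of the annotated span.

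The highest single score, 1848, belonged to Arf2, a small GTPase of membrane traffic, at chr11:103967214-103967313, whose middle is 538 bp from the annotated 5′ end. It was followed by Atp13a2, a lysosomal P-type ATPase, with 1106 at chr4:141007354-141007452 beside the 3′ end. Kbtbd7, an adaptor of a cullin ubiquitin ligase, reached 719 at chr14:79428650-79428699. The actin-nucleating formin Fhod3 reached 519 at chr18:25090405-25090504, and the kinesin Kif26b 479 at chr1:178932460-178932559. The RNA-binding protein Strbp (477), the vesicular monoamine transporter Slc18a1 (465), the NF-kB adaptor Tifa (421), Tmem229b (397) and the semaphorin Sema4c (384) came next. The same 100-bp peak at chr3:92256306-92256405, with a score of 369, was listed under Sprr2a1 and Sprr2a2, near-identical genes for small proline-rich proteins of the cornified envelope. Reads of these copies cannot be assigned with certainty, this position lies outside the RefSeq span of Sprr2a1, and the name Sprr2a1 shares its Ensembl identifier with Sprr2a3, which had a peak at day 0.

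The rule has no p-value limit, and the genes named here as near to it were picked by large p-values. Inside the rule this was the p-value of the best day 4 peak, and outside it that of the only day 0 peak. Among genes just inside it, predicted loci left out, the best day 4 peak of Usmg5, a small subunit of ATP synthase, had an authors' p-value of 0.00407 and a score of 2.15, and that of the zinc finger gene Zfp579 had 9.1e-04 and a score of 13.4. Dnajc4 (5.4e-04), Dbp (4.3e-04) and Emx2 (2.8e-04) followed. Just outside it, the ribosomal protein gene Rpl36a had an authors' p-value of 1.7e-16 at day 4 and was kept out by a single day 0 peak at 7.4e-04. Gcnt1, a mucin-type glycosyltransferase, was kept out by a day 0 peak at 1.1e-04 with a score of 103, beside 4 peaks at day 4.

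By position, none of the 1054 peaks shared a base with a day 0 peak on the same strand, and 93 had such a peak within 10000 bp. On the opposite strand, the Ddx49 peak at chr8:70293366-70293565 overlapped a day 0 peak of Homer3, and the Prpf39 peak at chr12:65063089-65063138 one of Fkbp3. The rule goes by name, and 6 of the 613 names share their Ensembl identifier with another name that had a day 0 peak. For 4 of them that peak was on another chromosome: Brf2 (with Zfp36l2), Gbf1 (with Ptges2), Mpnd (with Psmb6) and Tcf7l1 (with Tcf3). For Vps28 it was a peak of Tonsl 10959 bp away, and for Sprr2a1 the peak of Sprr2a3 29041 bp away. The 1054 entries stand for 1047 distinct positions, since 14 entries carry 6 names that share 7 positions. Only identical coordinates were merged here. The peaks of Akr1b3 at chr6:34303978-34304076 and of Gm6644 at chr6:34303982-34304079 nearly coincide, but are counted apart as peaks, as genes and as called methylation gains (1.33 and 1.30). Chromosome 18 had the highest share of its day 4 peaks in the set, 56 of 618 (9.06%), and includes 6 clustered protocadherin genes; the lowest share among chromosomes with more than 2 day 4 peaks was on chromosome 15, 28 of 749 (3.74%).

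Positions along genes could be measured for 1014 of the peaks, those in protein-coding genes with the middle of the peak inside the RefSeq span. The final decile of the gene held 49.7% of them, against 48.3% of the other day 4 peaks. Within 1000 bp of the annotated 3′ end lay 342 of them (33.7%, 95% Wilson interval 30.9 to 36.7), against 27.7% (27.0 to 28.4) of the others. Within 1000 bp of the 5′ end lay 114 (11.2%, 9.44 to 13.3), against 6.96% (6.59 to 7.35). The genes themselves were shorter, with a median span of 17143 bp against 24281 bp, and the part of gene length in these shares was not tested. The intervals cover counting error only, peaks of 1 gene are not independent, and spans include introns. Cox5b and Rasa4 are examples at the 3′ end, with peaks 72 and 73 bp from it. Nearly the same distance recurred in other genes with a 50-bp peak, such as Abtb1 (73 bp), Ap2a1 (74 bp), Dnpep (74 bp) and Fibp (75 bp). How the 50-bp bins were laid at transcript ends is not stated, and their part in these shares was not tested. Tgfb3, which encodes the ligand TGF-beta 3, had its highest peak (49.8, chr12:86078892-86078991) 100 bp from the 5′ end, with others scoring 37.9, 9.97 and 3.86.

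**Figure D3:**
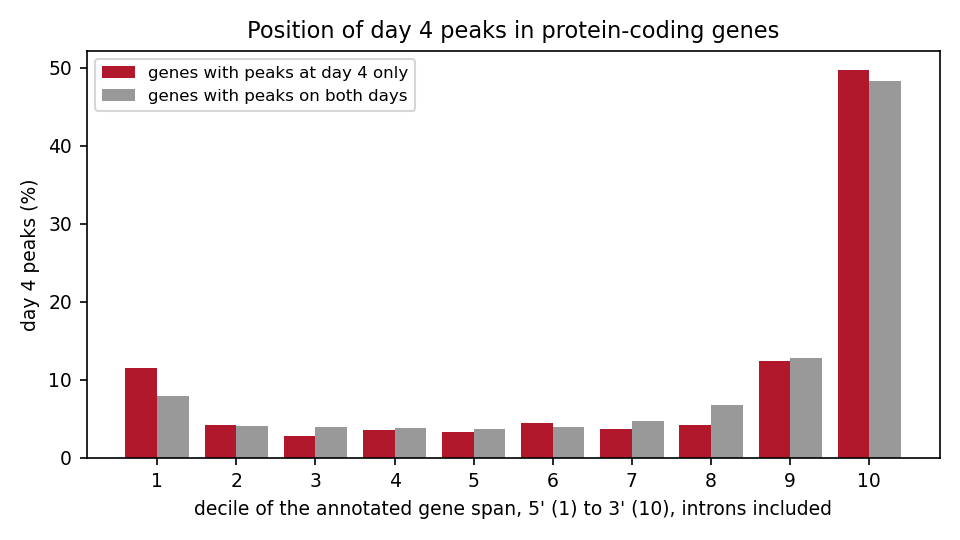
Percentage of day 4 peaks (vertical axis) in each decile of the annotated gene span from 5′ to 3′ (horizontal axis), for genes with peaks at day 4 only (red) and on both days (grey). The final decile holds 49.7% and 48.3%, and the opening one 11.5% and 7.99%.

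Most of the 613 genes were also more highly expressed at day 4. In the authors' deposited table of input libraries, 466 (76.0%, Wilson interval 72.5 to 79.2) were higher at an adjusted p under 0.05, where 27.1% of all genes tested were. Only 31 (5.06%) were lower, where 26.4% of all genes tested were, and 116 were not listed, that is, not called or not tested. Their median log2 fold change, day 4 over day 0, was 1.10 (quartiles 0.62 and 1.79) over the 497 listed genes, against 0.18 in genes with peaks on both days and 0.26 over all listed genes. A change of at least 2-fold upward was seen in 270 of them, where 11.3% of all genes tested had one, and none fell that far, where 9.9% of all did. The interval covers counting error only, and the genes are not independent: Sprr2a1 and Sprr2a2, for example, carry the same expression values. Peaks and expression share the input libraries and a peak needs expression, so these values describe the set. They were not tested as an effect of methylation.

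The level of these transcripts was modest. Their median mean normalized count, a level over both days that is not corrected for length, was 412, against 1090 in genes with peaks on both days. If the fold change is taken as a ratio of group means over 3 and 3 libraries, it gives implied levels with a median of 540 at day 4 and 226 at day 0. At day 0, 68 of the 497 (13.7%) had an implied level under 50, against 15.7% of all listed genes. Among listed genes with peaks on both days, which include a day 0 peak by definition, there were 3 (0.0759%). A level of 50 has no special standing and is used only to show how many were near the bottom of the range.

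**Figure D4:**
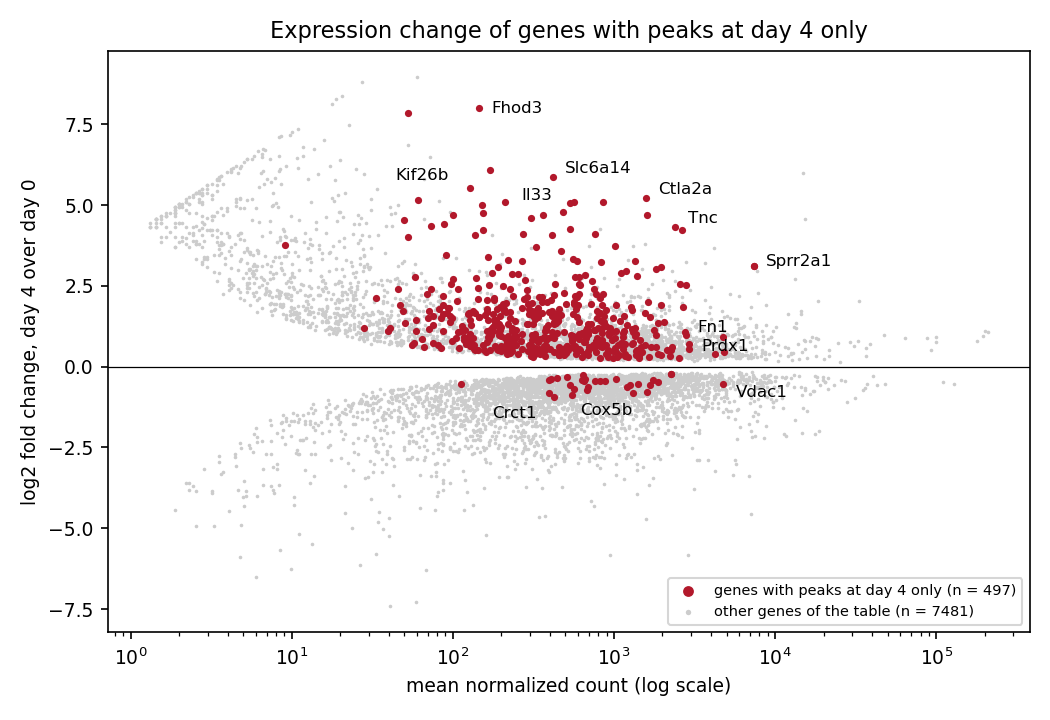
Expression change (log2 fold change, day 4 over day 0, vertical axis) against mean normalized count (log scale, horizontal axis) for genes of the authors' deposited table. The 497 genes with peaks at day 4 only (red) sit almost all above 0, with changes between -0.94 and 7.99, and the other genes (grey) on both sides.

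Where the mean over both days reached 100, the largest rises were of genes with little transcript at day 0. Fhod3 was higher by 7.99 ± 0.67 on the log2 scale (± SE, here and below, from the authors' deposited table), with an implied level of 288 at day 4 and 1.13 at day 0. Atp10b, a phospholipid flippase, was higher by 6.09 ± 0.38, and Slc6a14, an amino acid transporter, by 5.86 ± 0.25. The levels behind these values were far apart: the implied level of Atp10b was 334 at day 4 and 4.89 at day 0, and that of Slc6a14 was 817 and 14.1. Kif26b was higher by 5.52 ± 0.35 and Ctla2a, an inhibitor of cysteine proteases, by 5.22 ± 0.13. Hpgds (5.11 ± 0.15), the alarmin Il33 (5.09 ± 0.27), the membrane protein Tm4sf1 (5.08 ± 0.18) and the junction protein Cgnl1 (5.06 ± 0.18) were close together, within their SEs. The kinase Nuak1 was higher by 4.79 ± 0.17, Tgfb3 by 4.76 ± 0.26 and Spp1, the secreted phosphoprotein osteopontin, by 4.69 ± 0.20. For these genes, newly acquired methylation and the appearance of the transcript cannot be told apart by the presence of a peak.

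Others were well expressed on both days. Prdx1, a peroxidase of the cytosol, had an implied level of 3599 at day 4 and 2228 at day 0 in the authors' deposited table, and Ptpra 2968 and 1130. Npc2, which carries cholesterol out of lysosomes, had a mean of 4769 and was higher by 0.91 ± 0.09. The 31 genes lower at day 4 had a median mean of 687. Their falls were small, between 0.21 and 0.94 on the log2 scale.

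The 31 falling genes held fewer peaks and more of them near gene ends, a difference that was not tested. They had on average 1.13 peaks, 28 of them (90.3%) with 1 peak, against 1.86 and 52.8% in the 466 rising genes. Of their 34 positioned peaks, 55.9% lay within 1000 bp of the 3′ end and 20.6% within 1000 bp of the 5′ end, against 31.0% and 9.94% in the rising genes. The largest falls were those of Crct1, a cysteine-rich gene of the epidermal differentiation complex (-0.94 ± 0.18 in the authors' deposited table), Cox5b, a subunit of cytochrome c oxidase (-0.87 ± 0.17), Rasa4, a Ras GTPase-activating protein (-0.82 ± 0.13), Dhdds, of dolichol synthesis (-0.82 ± 0.13), Cyc1, cytochrome c1 (-0.79 ± 0.12), and Tmem120a (-0.73 ± 0.15). The 116 genes not in the table had 1.31 peaks on average and a median best score of 30.3, near the 30.4 of the rising genes.

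The authors also tested methylation site by site. In their deposited methylation table, 118 called sites (false discovery rate under 0.05) overlapped a day 4-only peak on the same strand, in 113 genes. Of these sites, 114 gained methylation at day 4 and 4 lost it, where 4.79% of all sites tested were gains and 2.17% losses. Gains were 96.6% of the called sites at these peaks and 68.8% of all called sites. By peak, 12.05% of the 1054 overlapped a gain and 0.569% a loss, against 7.81% and 5.03% of the other day 4 peaks. The remaining 921 peaks (87.4%) overlapped no called site, so for most of these regions the lack of a day 0 peak was not matched by a called change in methylation. This table rests on the same libraries as the peaks, and its direction at these peaks follows the rule, so it was not tested.

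The base of the log fold changes in the methylation table is not stated. The 111 finite gains ran from 0.66 to 5.98 with a median of 2.01, against 1.82 over all called gains. The largest was at Mvd, the decarboxylase of the mevalonate pathway (5.98 in the authors' deposited table, false discovery rate 0.0136). Prdx1 had gains of 5.07 (0.0169) and 2.81, Arf2 4.65 (0.00922) and Alkbh3, an enzyme that removes alkyl groups from nucleic acids, 4.61 (6.3e-05). The stress kinase Mapk13 (4.19), Il33 (4.14), Hmg20b, of the CoREST complex (4.04), the citrate carrier Slc25a1 (3.70) and Emd, which encodes the nuclear envelope protein emerin (3.63), followed. Jund, an AP-1 transcription factor, had a gain of 3.44 with a false discovery rate of 2.2e-130. Arf2 and Alkbh3 were not in the expression table, and Jund was higher in it by 0.93 ± 0.15. H2-T23, H60c and Rnf44 had gains listed as infinite.

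At 10 genes a called gain at the peak stood beside a lower transcript, with both values from the authors' deposited tables. Emd had a gain of 3.63 and an expression change of -0.37 ± 0.09, Rasa4 2.94 and -0.82 ± 0.13, and Cox5b 2.75 and -0.87 ± 0.17. Crct1 had a gain of 2.60 and a change of -0.94 ± 0.18, with an implied level of 293 at day 4 and 562 at day 0. The mitochondrial pore proteins Vdac1 (2.47 and -0.55 ± 0.09) and Vdac2 (2.22 and -0.21 ± 0.10), Cnot10 of the CCR4-NOT deadenylase (2.44 and -0.44 ± 0.10), the pyruvate dehydrogenase subunit Pdhb (2.01 and -0.41 ± 0.12), the isocitrate dehydrogenase subunit Idh3g (1.75 and -0.63 ± 0.10) and Tsc22d2 (1.44 and -0.39 ± 0.13) complete them. In these genes the peak appeared at day 4 while the transcript was less abundant than at day 0. The puma gene Bbc3, an inducer of apoptosis, had a gain of 2.02 (false discovery rate 1.3e-14) and was not in the expression table.

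The 4 losses at these peaks were at Alcam, an adhesion molecule (listed as minus infinity, false discovery rate 0.0170), Spp1 (-1.88, 0.0319), Bcl2l11, a pro-apoptotic protein (-0.91, 0.0178), and Pcdhb17, a clustered protocadherin (-0.65, 0.0450). None of the 4 passed a false discovery rate under 0.01. In the authors' deposited table all 4 transcripts were higher, Alcam by 4.26 ± 0.17, Spp1 by 4.69 ± 0.20, Bcl2l11 by 2.56 ± 0.13 and Pcdhb17 by 1.75 ± 0.14. The Alcam site has the same coordinates as a day 4 peak with a score of 20.0, so its value does not mean that no enrichment was seen at day 4. Implied levels at day 0 were 53.1 for Alcam, 27.1 for Spp1, 177 for Bcl2l11 and 153 for Pcdhb17, against 1019, 701, 1045 and 513 at day 4. The part of scarce day 0 transcript in these losses was not tested. Pcdhb17 also had a called gain of 1.07 (false discovery rate 0.0161) at another of its peaks.

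**Figure D5:**
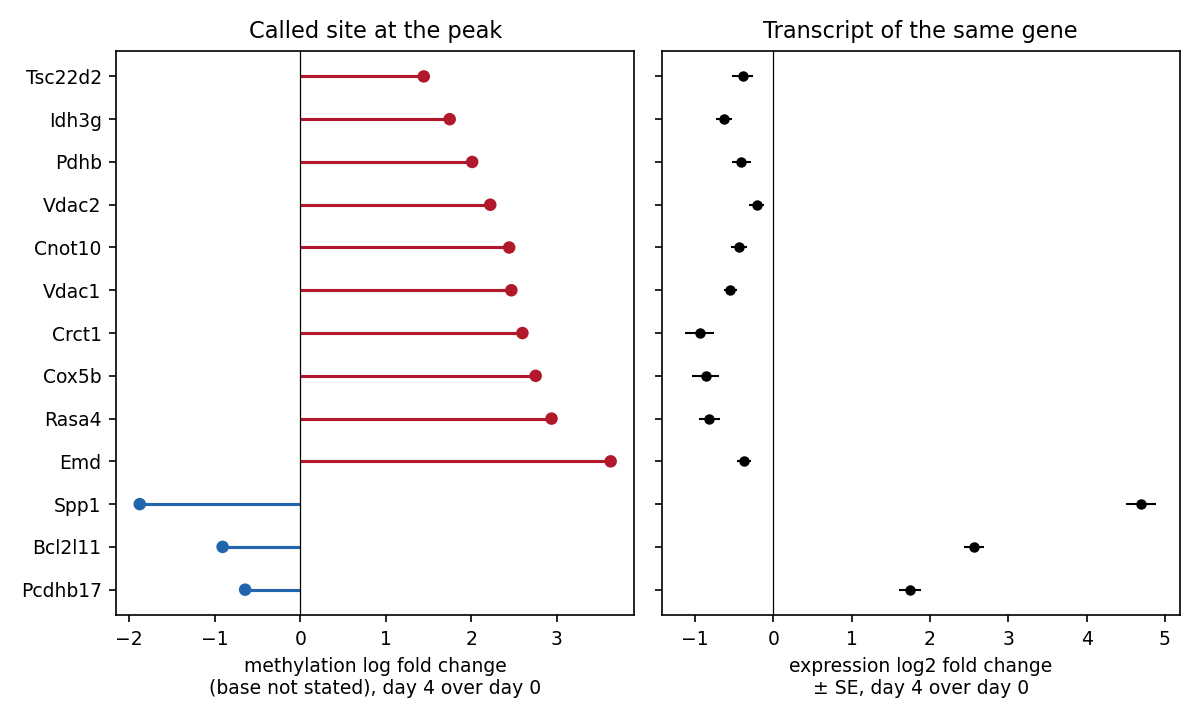
Left, the called methylation log fold change (base not stated) at the peak, day 4 over day 0, for the 10 genes with a gain and a lower transcript (red) and for 3 of the 4 with a loss (blue); the infinite loss of Alcam is not drawn. Right, the log2 expression change of the same genes with its SE, which is below 0 for the 10 genes with a gain and between 1.75 and 4.69 for the 3 with a loss.

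Gene lists by function were drawn up with earlier results of these data known, so their shares are description. Members are counted below among the genes of each list that had a day 4 peak. Each share is to be read against the 8.83% of all genes with a day 4 peak that were in the set. Of the 497 genes of the set in the expression table, 93.8% were higher at day 4. Counts of higher members in every list below are to be read against that share. Of 87 genes for signalling ligands and receptors, 48 had a day 4 peak and 5 of those (10.4%, near that share) had peaks at day 4 only. All 5 were higher at day 4, with a median log2 change of 1.57 (whole list, 28 higher and 18 lower). Tgfb3 is described above. Pdgfb, a growth factor for mesenchymal cells, was higher by 4.01 ± 0.40 at a mean of 52.8, with a peak score of 183 at chr15:79996823-79997022 and a gain of 2.84 (all expression and methylation changes here from the authors' deposited tables). The Wnt ligand Wnt5a had a peak score of 162 and a change of 1.54 ± 0.20, Wnt9a a change of 1.57 ± 0.15 and a gain of 1.09, and the Wnt receptor Fzd2 a change of 0.93 ± 0.16. Of 46 interleukin, chemokine and interferon genes, 14 had a day 4 peak and 3 of those (21.4%) had peaks at day 4 only, all 3 higher (list, 23 higher and 4 lower). These were Il33, Cxcl2 (1.57 ± 0.43, gain 2.84) and the cytokine Tnf (2.12 ± 0.46 at a mean of only 33.5).

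Of 42 genes of actin, contraction and cytoskeleton regulation, 20 had a day 4 peak and 9 of those (45%) had peaks at day 4 only. Of these, 8 rose, with a median of 2.45, and Tpm2, a tropomyosin, was not in the authors' deposited table (list, 18 higher and 5 lower). Besides Fhod3, Kif26b and Nuak1, Acta2, smooth muscle actin, was higher by 2.97 ± 0.12 with a peak of score 70.2, and Tns1, which links actin to integrins, by 0.88 ± 0.15 with a score of 244. Synpo, an actin-bundling protein, Myh14, a non-muscle myosin, and the formin Fhod1 had 5 peaks each and changes of 1.93 ± 0.13, 0.98 ± 0.18 and 1.00 ± 0.12. Of 54 junction and adhesion genes, 4 of the 36 with a day 4 peak (11.1%) were in the set, all 4 higher (list, 20 higher and 18 lower). They were the tight junction genes Cldn23 (4.09 ± 0.19, 4 peaks, gain 1.53) and Cgnl1, the desmosomal plaque gene Pkp2 (1.31 ± 0.12) and the cadherin Cdh2 (2.16 ± 0.16), whose peak at chr18:16589976-16590275 had a score of 308.

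Some matrix genes of the set are also fibroblast products. Of 56 matrix and matrix protease genes, 4 of the 19 with a day 4 peak (21.1%) were in the set, all 4 higher in the authors' deposited table (list, 24 higher and 9 lower). They were Tnc (4.33 ± 0.14, gain 0.95), Col12a1, a fibril-associated collagen (3.27 ± 0.21), the laminin chain Lamb2 (1.55 ± 0.13) and fibronectin, Fn1 (1.07 ± 0.14). Of 17 fibroblast and feeder markers, 7 were in the expression table, 5 higher and 2 lower, and their summed implied level was 6707 at day 4 and 2544 at day 0. Most of that sum is Fn1 and Acta2 themselves, and the other 5 summed to 856 at day 4 and 495 at day 0. Fn1 and Acta2 were the only markers of the 17 with a peak on either day. Col5a1 (4.58 ± 0.38), Postn (3.66 ± 0.22) and Pdgfra (1.73 ± 0.31) were higher, Col6a1 (-2.07 ± 0.24) and Col6a2 (-2.42 ± 0.21) were lower, and Col1a1, Col1a2, Col3a1, Pdgfrb, Thy1, Vim, Lum, Dcn, Fap and Twist1 were not listed, so their level is unknown. The part of feeder cells in the Fn1, Acta2, Tnc and Col12a1 results was not tested. In bulk RNA, more cells of a type and more RNA per cell cannot be told apart.

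Of 34 spinous and cornified layer genes, 17 had a day 4 peak and 2 of those (11.8%, near the overall 8.83%) were in the set. They were Sprr2a1 (3.12 ± 0.12 in the authors' deposited table, at a mean of 7383), whose peak has the uncertain assignment described above, and Tchh, trichohyalin, with a change of 1.65 ± 0.13, a peak of score 16.2 and a gain of 1.45 (list, 14 higher and 11 lower). Epidermal genes outside that list were in the set too, among them Crct1, Krt13 (2.17 ± 0.17) and Scel (4.68 ± 0.13), named after their values were seen. The set held none of the 15 basal layer genes with a day 4 peak (of 17), 18 epidermal transcription factors (of 24), 11 barrier lipid genes (of 25) and 5 keratinocyte markers (of 7). It also held none of the 12 cell cycle genes with a day 4 peak (of 26), 14 genes of the m6A machinery (of 20), 1 immune or endothelial marker (of 11) and 2 Merkel cell and nerve markers (of 8). At 8.83%, lists this short hold few members or none, so nothing is read from these zeros. Of the 22 p53 target genes with a day 4 peak it held Bbc3 and Ei24 (0.31 ± 0.10), and of 9 AP-1 and immediate early genes it held Jund. Of 8 melanocyte markers, Mitf, a master regulator of that lineage, was the only one with a day 4 peak and was in the set, higher by 1.65 ± 0.21. Kit was also higher, by 6.14 ± 1.41 at a mean of 4.74, and Tyr, Tyrp1, Dct, Pmel, Mlana and Sox10 were not in the expression table.

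Further groups were drawn up after the values had been seen and are given as description. Of 42 genes of sterol and fatty acid synthesis and transport, 36 had a day 4 peak and 13 of those (36.1%) had peaks at day 4 only. In the authors' deposited table all 13 were higher, with a median of 1.92, as were 37 of the whole 42, with 2 lower. They include enzymes of the mevalonate pathway and of later steps of cholesterol synthesis (Mvk 0.54 ± 0.16, Mvd 1.92 ± 0.17, Fdps 2.90 ± 0.14, Dhcr7 1.00 ± 0.16), the sterol sensor partner Insig1 (3.24 ± 0.14) and the transcription factor Srebf1 (1.14 ± 0.16). Fdps, farnesyl diphosphate synthase, had 3 peaks, the highest 73 bp from the 3′ end at chr3:89093637-89093686, and Insig1 had 3 with a highest score of 22.5. The stearoyl-CoA desaturase Scd1 (3.02 ± 0.17), the cholesterol exporter Abca1 (1.94 ± 0.19, peak score 196), the sterol carrier Stard4 (2.08 ± 0.15), Acat2 (2.28 ± 0.18) and the oxysterol receptor Nr1h2 (0.70 ± 0.15) also belong to it. Called gains were listed under 4 of the 13 names, where 19.4% of the 613 had one: Mvd, Slc25a1, Srebf1 (1.84) and Nr1h2 (1.87).

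Of 32 genes of the NF-kB pathway, 25 had a day 4 peak and 8 of those (32%) were in the set, all 8 higher in the authors' deposited table (list, 18 higher and 5 lower). Nfkb2 (0.82 ± 0.10, gain 2.22) and Relb (0.82 ± 0.15) encode the pair of the non-canonical branch. Tifa (1.92 ± 0.31 at a mean of 47.2), Peli3 (2.41 ± 0.34) and the receptor chains Il18r1 (1.68 ± 0.14) and Il18rap (4.34 ± 0.35) act upstream, and Nkiras2 (0.47 ± 0.11) is an inhibitor. Of 28 genes of antigen presentation, 4 of the 13 with a day 4 peak (30.8%) were in the set, all 4 higher: the peptide transporter Tap2 (0.41 ± 0.18), Tapbp, which loads peptides on class I molecules (1.56 ± 0.18, gain 1.80), H2-T23 (1.38 ± 0.19) and H2-DMa (1.71 ± 0.17).

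Mitochondrial genes ran the other way. Of 99 genes of the respiratory chain, citrate cycle and outer mitochondrial membrane, 69 had a day 4 peak and 16 of those (23.2%) were in the set; of the 16, the authors' deposited table had 2 that rose, 9 that fell and 5 that were absent. The whole list had 15 higher and 57 lower with a median of -0.49. Cox5b, Cyc1, Idh3g, Idh3a (-0.58 ± 0.11), Ndufb6 (-0.56 ± 0.16), Vdac1, Pdhb, Ndufb4 (-0.40 ± 0.16) and Vdac2 were lower, and Ndufa1 (0.53 ± 0.17) and Cox7a2 (0.36 ± 0.12) were higher. Called sites were listed under 8 of the 16 names, all gains, where 19.4% of the 613 names had a gain, among them Cox7a2 (2.52), Suclg1 (2.47) and Cox6c (2.16). Of the 16 best peaks, those of Cox5b, Cox6c, Idh3g, Ndufb4, Suclg1 and Vdac1 lay within 100 bp of the 3′ end, as did peaks of other genes of the set. Many were low in score, such as that of Vdac1 at chr11:52389249-52389347 (5.83) and that of Ndufb4 (5.1), although Vdac2 reached 39.4.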

How the data were processed

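The libraries were 3 each of day 4 and day 0 m6A immunoprecipitation and input. HISAT2 2.1.0, DESeq2 1.18.1 and the build mm10 are named in the submitters' processing notes; no source used here names the peak caller, the methylation test or how replicates were joined. Each peak in the authors' deposited lists has an enrichment score and an unadjusted p-value. The deposited expression table holds a mean normalized count (a signal averaged over libraries), a log2 fold change, its SE and adjusted p-values, and the authors' methylation table a log fold change of unstated base, handled as a score, with p-values. Both list only entries under 0.05. The numbers tested (14924 genes, 36796 sites) were derived from adjusted p, p and rank.

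Direction is not named in the headers. All 25 listed cell cycle genes, none in the set, were negative, so positive values were read as higher at day 4. In genes outside the set with 1 peak on each day, positive sites had a median log2 score ratio, day 4 over day 0, of 0.30 and negative sites -0.90.

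Genes were matched by name, 610 of 613 to RefSeq GRCm38.p6 (32 by an older symbol). Sites were joined to peaks by at least 1 bp on the same strand. Intervals are 95% Wilson. The members and lists were chosen with earlier results of these data known. Genes named were the 12 highest scores, 8 with most peaks, 12 largest rises and 6 largest falls (mean of at least 100), 10 largest finite gains, up to 5 losses, up to 4 per list, 5 on each side of the rule and the starts covered by peaks; other names were chosen after their values were seen. The overlap and counting steps were checked on simulated data. Software was Python 3.11.15, numpy 2.4.6, pandas 2.3.3, scipy 1.17.1 and matplotlib 3.10.9.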

Additional observations from a re-analysis of the deposited data

How the results depend on the processing

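Of 33 alternatives, 24 stayed within 1.5 times the reported count or within the reported share's interval. Among the 24, leaving out overlap with a day 0 peak on the same strand could not change the counts of peaks and genes, since no peak overlapped one. Leaving out genes whose peaks overlap a day 0 peak likewise gave the same 466 higher and 31 lower genes. Keeping only peaks at or above the median day 4 score left 613 of the 1054 peaks. A change of at least 2-fold left 270 of the 466 higher genes and 0 of the 31 lower ones. A false discovery rate under 0.01 left 56 of the 114 gains and 0 of the 4 losses at the peaks, and joining sites by gene name in place of position gave 11 losses. The share of peaks near the 3′ end, 33.7% within 1000 bp, was 22.7% within 500 bp, 49.8% within 2000 bp and 38.2% for the highest-scoring peak of each gene. Counting identical positions as 1 peak, which gave 1047, was added after the data had been seen. No paired analysis was possible because the tables have no value per library, and for the same reason leaving out single replicates was not run. Library depth is unknown, so whether a day 0 peak was missed where the transcript was scarce was not tested. An implied day 0 level under 50 was found in 68 of the 497 listed genes of the set (13.7%), against 15.7% of all listed genes.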

Other observations

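Several large gene families had members in the set, described here after their values were seen. Of 19 clustered protocadherins, 9 had a day 4 peak and 6 of those (66.7%, against 8.83% of all genes with a day 4 peak) had peaks at day 4 only, all on chromosome 18. Pcdhb16, Pcdhb17 and Pcdhb20 had 4 peaks each and were higher by 1.78 ± 0.18, 1.75 ± 0.14 and 1.66 ± 0.24 in the authors' deposited table. Pcdhga3, Pcdhga5 and Pcdhgb6 were not listed, and counts of these similar genes, which share exons, are uncertain. Of 36 kinesins, 17 had a day 4 peak and 5 of those (29.4%) were in the set, all 5 higher: Kif26b, Kif3c (1.78 ± 0.14), Kif5c (2.66 ± 0.17), Kifc2 (2.86 ± 0.19) and Kifc3 (1.74 ± 0.14). The whole kinesin list had 9 higher and 21 lower with a median of -1.71. Since 93.8% of all listed genes of the set were higher, nothing about kinesins is read from this difference. Of 176 solute carriers, 17 of the 115 with a day 4 peak (14.8%) were in the set, 15 of them higher and 2 not listed (list, 78 higher and 58 lower), led by Slc6a14, the peptide transporter Slc15a1 (4.10 ± 0.27) and Slc18a1 (2.87 ± 0.18). Of 229 zinc finger genes named Zfp, 18 of the 156 with a day 4 peak (11.5%, near the overall 8.83%) were in the set, 14 higher, Zfp692 lower (-0.44 ± 0.12) and 3 not listed (list, 89 higher and 49 lower).

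Away from their day 4 peaks, genes of the set had 24 further called sites in the authors' deposited methylation table, 17 gains (70.8%, where 68.8% of all called sites were gains) and 7 losses. The losses were at Srd5a1, a steroid reductase (-4.01), the ubiquitin ligase Hectd3 (-3.18), Fn1 (-2.98), the metalloproteinase Mmp15 (-2.49), the glutaredoxin Glrx (-1.85, false discovery rate 2.7e-11), Zfp954 (-1.84) and H60c (-1.37). All 7 genes were listed as more highly expressed at day 4. H60c, a ligand of an immune receptor, had an infinite gain at its peak and this loss elsewhere in the transcript. These genes had no day 0 peak in the list, so the sites with losses were tested where no day 0 peak was called.

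In all, 485 of the 613 genes (79.1%) had no called site under their name, against 71.8% of genes with peaks on both days. Predicted loci made up 25 of the 613 genes (4.08%), against 2.34% of the genes with peaks on both days.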
